A study of Homo sapiens with 3 samples.

Results

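CHFR and 9 genes of the mitotic entry and spindle checkpoints were followed in 293T cells in which the antisense promoter (ASP) of LINE-1 (L1) was targeted with dCas9-VP64. The 10 genes were taken by name, and all 10 were found among the 23284 gene names of the RNA-seq. 293T is a cell line from human embryonic kidney. The cells of each library expressed dCas9-VP64, in which the activator VP64 is joined to a Cas9 that does not cut. They also expressed a mock sgRNA from the parental vector, sgL1ASP #1 or sgL1ASP #3. The paper describes transient expression of this system in 293T cells, and does not give the share of cells that expressed it. The guides target different sites of the L1 5′ region that holds the ASP. There was 1 library per condition, and a difference between conditions therefore cannot be checked against replicates. Both comparisons against mock use the same mock library.

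The checkpoints guard the entry into mitosis and the separation of the chromosomes. CHFR is a ubiquitin ligase that delays entry into mitosis under microtubule stress, and the kinases AURKA and PLK1, which drive this entry, are among its known targets. Later in mitosis, kinetochores that are not attached to microtubules recruit the kinases TTK and BUB1, and MAD2L1, BUB1B and BUB3 then bind CDC20, so that the anaphase-promoting complex (APC/C) stays inactive. AURKB, the kinase of the chromosomal passenger complex, corrects wrong attachments. The study followed CHFR by real-time RT-PCR with HPRT1 as the reference gene, and reported that its expression was affected in sgL1ASP-treated cells. The paper names CHFR among its examples of upregulated cell cycle genes and proposes that the ASP may drive it directly. The RNA-seq values of CHFR are set here among those of the genes it acts with.

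The promoters were examined first, because many genes of late cell cycle expression share a CHR element, with the letters TTTGAA or TTCGAA, often downstream of a CCAAT box. Promoter windows from RefSeq on GRCh38.p14, from 250 bases before to 50 bases after the start of the gene, were matched for 7 of the 10 genes. AURKA, BUB3 and TTK had no entry. The CHR letters were searched on both strands and occurred in 5 of the 7 windows, those of PLK1, MAD2L1, BUB1, BUB1B and CDC20. They occurred in 16.6% of all 27305 windows, and in 10.5% of the 8935 windows of genes with mean FPKM at least 1 in the RNA-seq. CCAAT, on either strand, occurred in 6 of the 7 windows, all but that of BUB1B, and in 35.7% of all windows.

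The window of CHFR held CCAAT at positions -246 and -56 from the start, and neither form of the CHR letters. Its 250 upstream bases, at chr12:132887606-132887855 on the minus strand, are shown with those of PLK1, at chr16:23678639-23678888 on the plus strand, and of CDC20, at chr1:43358731-43358980 on the plus strand. Capitals mark CCAAT and the CHR letters on either strand. The CHR letters lay at position -29 in PLK1, and at -65 and, on the other strand, -178 in CDC20.
CHFR: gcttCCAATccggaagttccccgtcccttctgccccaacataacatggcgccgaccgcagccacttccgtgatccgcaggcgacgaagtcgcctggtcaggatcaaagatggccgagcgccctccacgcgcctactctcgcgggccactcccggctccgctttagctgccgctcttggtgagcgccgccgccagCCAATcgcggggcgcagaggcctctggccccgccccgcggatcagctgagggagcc
PLK1: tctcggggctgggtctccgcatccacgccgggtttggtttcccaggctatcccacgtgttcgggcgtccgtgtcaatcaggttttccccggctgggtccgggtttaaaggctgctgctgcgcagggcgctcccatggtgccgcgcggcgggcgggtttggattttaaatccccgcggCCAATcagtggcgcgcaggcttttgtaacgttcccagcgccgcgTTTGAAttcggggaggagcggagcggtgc
CDC20: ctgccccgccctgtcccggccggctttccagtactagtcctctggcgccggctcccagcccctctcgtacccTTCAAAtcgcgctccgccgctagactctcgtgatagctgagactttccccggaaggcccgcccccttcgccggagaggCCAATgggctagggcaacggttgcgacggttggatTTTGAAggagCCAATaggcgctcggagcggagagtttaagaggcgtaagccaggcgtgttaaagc

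The checkpoint genes MAD2L1, BUB1 and BUB1B carried the CHR letters close to the start, at positions 25, 2 and -23. The 30 bases around them are shown for comparison, from chr4:120066807-120066836 and chr2:110678045-110678074 on the minus strand and from chr15:40161034-40161063 on the plus strand. BUB1 carried the TTCGAA form, which reads the same on both strands. AURKB had no CHR letters, and its 30 bases from chr17:8210361-8210390 on the minus strand show its CCAAT, which lies on the other strand at position -153. A match is only a match of letters and says nothing of binding.
MAD2L1: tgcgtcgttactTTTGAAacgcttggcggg
BUB1: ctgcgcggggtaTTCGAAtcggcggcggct
BUB1B: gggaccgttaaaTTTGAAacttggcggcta
AURKB: accagcgcccagATTGGggctagtgtgctg

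Expression was measured as FPKM, a fragment count scaled for exon length and for the mapped fragments of the library, which allows levels of different genes to be compared per length. Depth was estimated from the lowest values at 10.4 M reads in mock, 10.3 M with sgL1ASP #1 and 8.7 M with sgL1ASP #3. The 10 genes were compared with the 12830 genes with mean FPKM at least 1 over the 3 libraries, and each of the 10 passed this filter. As a check of the cell line, 8 of 10 markers of 293T cells had FPKM at least 1 in each library, and the 10 summed to between 997 and 1094. VIM, an intermediate filament gene that many cell types express, made up most of this sum, with FPKM from 807 to 904. PAX2 and EYA1, kidney development factors, stayed under 1 in each library, from 0.522 to 0.658 and from 0.407 to 0.642. Of 18 markers of leukocytes, fibroblasts, endothelium and other lines, 5 to 7 were listed at 0, among them PTPRC, CD3E and DCN in every library, and the 18 summed to between 10.9 and 11.9.

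All 10 genes were expressed at or above the middle of the 12830 genes, and CHFR was the lowest of them in every library. The canonical CHFR transcript has 18 exons and spans 133408942 to 133464191 of chromosome 12 (GRCh37, minus strand). Its FPKM was 12.8 in mock, 13.4 with sgL1ASP #1 and 13.3 with sgL1ASP #3. These values were lowest in mock and lay within 1.05-fold of each other, at the 51.3, 53.0 and 52.6 percentiles of the tested genes. At the estimated depth, the coding sequence of CHFR was covered by about 262, 271 and 226 reads.

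The kinases that CHFR acts on were higher than CHFR. AURKA, at 54944446 to 54967271 of chromosome 20, had FPKM 17.5 in mock, 15.9 with sgL1ASP #1 and 17.4 with sgL1ASP #3. It was lowest in sgL1ASP #1. PLK1, at 23690210 to 23701688 of chromosome 16, had FPKM 25.04, 24.9 and 26.6, and was highest in sgL1ASP #3. The lowest value of AURKA was above the highest value of CHFR, and the lowest value of PLK1 was above the highest value of AURKA.

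The kinases of the spindle checkpoint differed in level. AURKB, at 8108052 to 8113893 of chromosome 17, had FPKM 58.4 in mock, 59.4 with sgL1ASP #1 and 60.8 with sgL1ASP #3, at the 87.5 to 87.8 percentiles. TTK, the kinase that starts checkpoint signalling and lies at 80714366 to 80752244 of chromosome 6, had FPKM 19.7, 20.2 and 21.8. BUB1, the kinase that TTK helps to place at kinetochores and that lies at 111395105 to 111435640 of chromosome 2, had FPKM 19.3, 21.2 and 21.0. All 3 kinases were lowest in mock. The mean FPKM of TTK and BUB1 was 20.5 for both, their ranges over the libraries overlapped, and their order turned in sgL1ASP #1.

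The components that bind CDC20 spanned the widest range. BUB3, the shared partner of BUB1 and BUB1B at 124913918 to 124929983 of chromosome 10, was the highest of the 10 genes, with FPKM 109.2 in mock, 106.0 with sgL1ASP #1 and 112.7 with sgL1ASP #3. MAD2L1, the protein that closes around CDC20 and is encoded at 120976778 to 120988003 of chromosome 4, had FPKM 65.1, 73.7 and 71.1, lowest in mock. BUB1B, the pseudokinase BubR1 at 40453270 to 40513324 of chromosome 15, had FPKM 18.3, 18.8 and 17.97. The level of BUB1B was below that of its relative BUB1 in each library. CDC20, the target of the checkpoint at 43824652 to 43828874 of chromosome 1, had FPKM 39.7, 36.0 and 37.6 and was highest in mock.

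The order of the 10 genes by mean FPKM was BUB3, MAD2L1, AURKB, CDC20, PLK1, TTK, BUB1, BUB1B, AURKA and CHFR. Among the 9 pairs of neighbours in this order, only TTK and BUB1 had ranges over the 3 libraries that overlapped. The ratio of the highest to the lowest gene was 8.51 in mock, 7.90 with sgL1ASP #1 and 8.47 with sgL1ASP #3. Within each gene, the highest of the 3 libraries was between 1.04-fold (AURKB) and 1.13-fold (MAD2L1) above the lowest. The levels thus differed far more between the genes than between the libraries, as the plot of FPKM by gene shows.

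**Figure D1:**
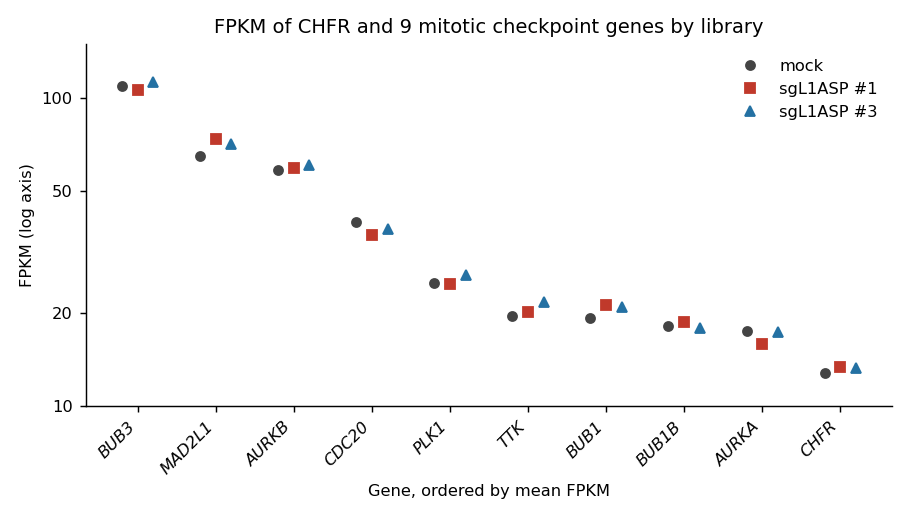
FPKM (log axis) of CHFR and 9 checkpoint genes in mock (circles), sgL1ASP #1 (squares) and sgL1ASP #3 (triangles), 1 library each, with no error bars. The genes fall from BUB3 at 106.0 to 112.7 to CHFR at 12.8 to 13.4, and the 3 points of each gene lie within 1.13-fold.

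With sgL1ASP #1, 6 of the 10 genes were higher than in mock and 4 were lower, beside 50.3% of the tested genes that were higher. The differences were small, and 0 of the 10 genes passed 1.5-fold in either direction, which 3.85% of the tested genes passed. At the lower limit of 1.1-fold, 3 genes passed, MAD2L1 and BUB1 upward and CDC20 downward, against 35.6% of the tested genes. The median log2 difference of the 10 genes, taken on log2(FPKM + 0.1), was 0.031, and that of all tested genes was 0.00085. The median absolute log2 difference was 0.053 for the 10 genes and 0.094 for all tested genes.

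CHFR had a log2 difference of 0.065 with sgL1ASP #1, with a 95% counting interval from -0.18 to 0.31. It turned to -0.028 when the libraries were rescaled to the same sum, which moved the median of all tested genes to -0.092. The interval covers only the counting error of the reads estimated over the coding sequence. MAD2L1 had the highest log2 difference of the 10 genes, 0.18 (interval -0.011 to 0.37), and ranked at the 87.6 percentile of all tested genes. BUB1 followed with 0.14 (interval -0.013 to 0.29). CDC20, the activator of the APC/C, had the lowest, -0.14 (interval -0.30 to 0.027), at the 17.7 percentile, and AURKA had nearly the same log2 difference, -0.14 (interval -0.41 to 0.14). The other 5 genes lay between -0.042 (BUB3) and 0.041 (BUB1B). The counting interval held 0 for each of the 10 genes, while 7.24% of the 11735 genes with an interval lay outside theirs. The coding sequence is 615 of the 5227 bases of the MAD2L1 transcript and 3255 of the 3762 of BUB1. The intervals may therefore overstate the counting error by unequal amounts. How many of the 10 genes lie outside them, here and in the other comparisons, may depend on this choice of reads.

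With sgL1ASP #3, 7 of the 10 genes were higher than in mock and 3 were lower, beside 50.4% of the tested genes that were higher. Again 0 of the 10 genes passed 1.5-fold, against 4.08% of the tested genes, and only TTK passed 1.1-fold, against 35.7%. TTK had a log2 difference of 0.15 (interval -0.031 to 0.33). MAD2L1 had 0.13 (interval -0.074 to 0.33) and BUB1 0.12 (interval -0.039 to 0.28). CHFR had 0.052 (interval -0.20 to 0.31), or -0.067 with the same sums, where the median of all tested genes was -0.12. CDC20 was the lowest with -0.078 (interval -0.25 to 0.093). The median of the 10 genes was 0.055, and that of all tested genes 0.0015. No gene of the 10 lay outside its counting interval, as 5.97% of all genes with an interval did.

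Between the guides, 4 of the 10 genes were higher with sgL1ASP #1 and 6 with sgL1ASP #3, beside 49% of the tested genes higher with sgL1ASP #1. None of the 10 passed 1.5-fold or 1.1-fold, limits that 4.04% and 35.6% of the tested genes passed, and none lay outside its counting interval, against 5.75%. AURKA had the lowest log2 difference, -0.13 (interval -0.42 to 0.16), and BUB1B the highest, 0.064 (interval -0.11 to 0.24). CHFR differed by 0.013 (interval -0.24 to 0.27). Its ratio of deposited FPKM was 1.04 from mock to sgL1ASP #3 and 1.01 from there to sgL1ASP #1. Neither step reached the 1.5-fold limit that the study set for its upregulated genes. Against mock, the counting interval of CHFR had a log2 half-width of 0.25 with sgL1ASP #1 and 0.26 with sgL1ASP #3. Smaller differences lie within this estimated counting error, for which only reads of the coding sequence were taken. Without replicates it gives no limit for detecting a difference between conditions.

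**Figure D2:**
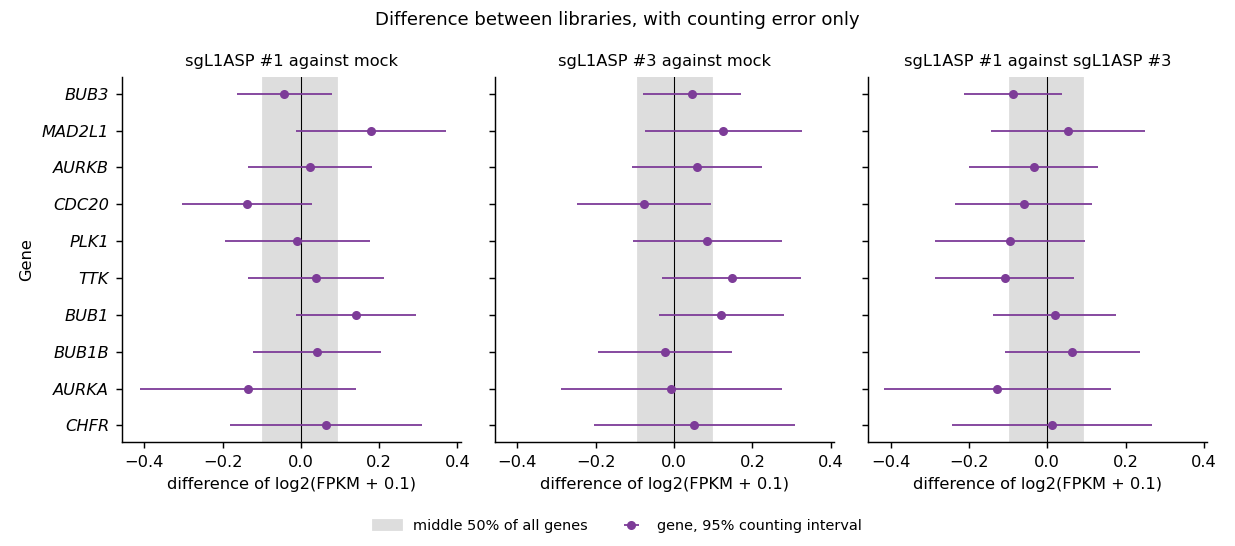
Difference of log2(FPKM + 0.1) between libraries for each gene (points) with 95% counting intervals (bars) in 3 comparisons; the grey band is the interquartile range of the 12830 tested genes. Each interval, estimated from reads of the coding sequence alone, crosses 0, and MAD2L1 at 0.18 and CDC20 at -0.14 lie farthest out with sgL1ASP #1.

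The share of genes past a limit depends on their level. Among the 5373 genes with mean FPKM within the range of the 10 genes, 1.25% passed 1.5-fold with sgL1ASP #1 and 1.15% with sgL1ASP #3, and 21.2% and 19.9% passed 1.1-fold. These directions hold for FPKM as deposited. After rescaling the libraries to equal sums, the median of all tested genes moved to -0.092 with sgL1ASP #1 and -0.12 with sgL1ASP #3. Of the 10 genes, 2 and 3 were then above mock. The median of the 10 genes turned from 0.031 to -0.062 with sgL1ASP #1 and from 0.055 to -0.064 with sgL1ASP #3. With HPRT1 made equal it was -0.018 and 0.017. Scaling the libraries by the median ratio of their genes to mock gave 0.030 and 0.053, with 6 and 7 of the 10 genes above mock. With equal sums and sgL1ASP #1, the genes above mock were MAD2L1 and BUB1. With equal sums and sgL1ASP #3, TTK was higher as well, at 0.028, while MAD2L1 was at 0.0068 and BUB1 at 0.0019.

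Ratios of genes within a library do not depend on such scaling, and 10 pairs were compared. The ratio of CHFR to HPRT1 was 0.114 in mock, 0.115 with sgL1ASP #1 and 0.115 with sgL1ASP #3, and was the steadiest of the 10 ratios, within 1.01-fold. HPRT1 itself had FPKM 112.7, 116.6 and 115.7. The ratio of CHFR to AURKA was 0.733, 0.843 and 0.764, and that of CHFR to PLK1 was 0.512, 0.540 and 0.501. The former was highest with sgL1ASP #1, by a log2 difference of 0.20 ± 0.37 against mock, where the error is the half-width of the 95% counting interval. AURKA to AURKB was 0.300, 0.268 and 0.286.

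The ratios of the checkpoint complex to its target CDC20 were all lowest in mock. MAD2L1 to CDC20 was 1.64 in mock, 2.05 with sgL1ASP #1 and 1.89 with sgL1ASP #3. Its log2 difference was 0.32 ± 0.25 with sgL1ASP #1 and 0.20 ± 0.26 with sgL1ASP #3. Of the 30 log2 differences of the 10 pairs in 3 comparisons, the value of MAD2L1 to CDC20 with sgL1ASP #1 was the only 1 outside its counting interval, and these intervals are not adjusted for 30 values. BUB1B to CDC20 was 0.460, 0.522 and 0.478, and BUB3 to CDC20 was 2.75, 2.94 and 3.00. The 3 ratios share CDC20, which was highest in mock.

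Among the BUB genes, BUB3 had the highest FPKM in every library. BUB3 to BUB1B was 5.98 in mock, 5.64 with sgL1ASP #1 and 6.27 with sgL1ASP #3, and BUB3 to BUB1 was 5.67, 4.99 and 5.38. BUB1 to BUB1B was 1.06, 1.13 and 1.17. None of these ratios moved beyond its counting interval in any comparison.

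**Figure D3:**
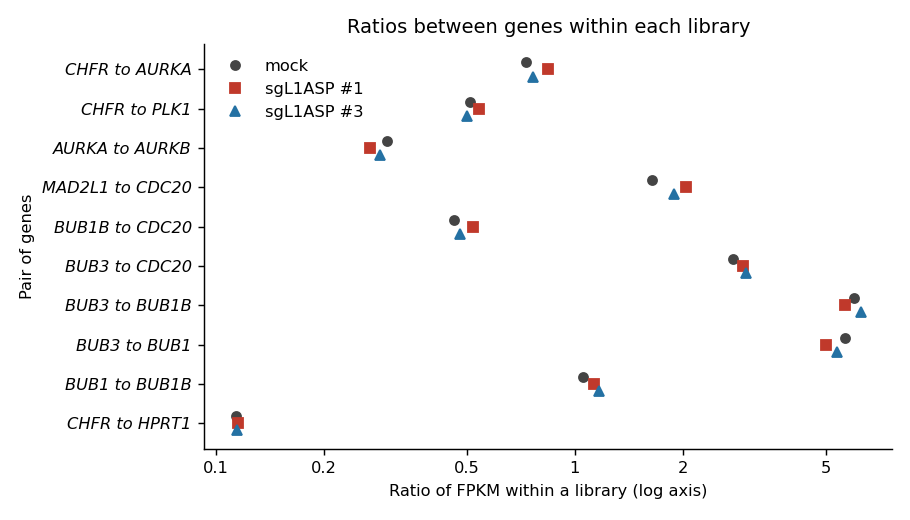
Ratio of FPKM of 2 genes within a library (log axis) for 10 pairs, in mock (circles), sgL1ASP #1 (squares) and sgL1ASP #3 (triangles), with no error bars. MAD2L1 to CDC20 spreads most, from 1.64 to 2.05, and CHFR to HPRT1 least, from 0.114 to 0.115.

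The genes nearest to CHFR over the 3 libraries were sought by the Euclidean distance of log2(FPKM + 0.1) among the tested genes. Among the nearest were RAI1 (distance 0.018; FPKM 12.9, 13.3 and 13.3 in mock, sgL1ASP #1 and sgL1ASP #3) and FAM176B (0.019; 12.8, 13.4 and 13.1). In all, 75 genes lay within a distance of 0.1 of CHFR and 410 within 0.2. A likeness over 3 libraries is shared by many genes and does not set CHFR apart. RNF8, a ubiquitin ligase that like CHFR joins an FHA and a RING domain, had FPKM 10.6, 12.6 and 10.7, with a log2 difference of 0.25 ± 0.30 with sgL1ASP #1 and 0.023 ± 0.33 with sgL1ASP #3.

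The genes around the checkpoint were followed in 6 lists of 95 genes, all of them found and all with mean FPKM at least 1. Of the 95, 36 were higher than in mock with sgL1ASP #1, beside 50.3% of the tested genes, and 42 with sgL1ASP #3, beside 50.4%. With sgL1ASP #1, 0 were above and 1 was below mock by more than 1.5-fold, beside 3.85% of the tested genes in either direction. With sgL1ASP #3, 0 passed, beside 4.08%. The counting interval was exceeded by 10 of the 95 with sgL1ASP #1, beside 7.24% of all genes with an interval, and by 9 with sgL1ASP #3, beside 5.97%. The median log2 difference of the 95 genes against mock was -0.026 under sgL1ASP #1 and -0.017 under sgL1ASP #3. The plot of the lists shows where each gene lies.

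Of 25 genes of the kinetochore and of the checkpoint's assembly, 7 were higher than in mock with sgL1ASP #1 and 6 with sgL1ASP #3, beside 50.3% and 50.4% of the tested genes. Their medians were -0.049 and -0.065. The highest with sgL1ASP #1 was MAD1L1, the kinetochore partner of MAD2L1, with FPKM 8.09 in mock, 9.70 with sgL1ASP #1 and 7.81 with sgL1ASP #3, a log2 difference of 0.26 ± 0.28. The lowest was MAD2L1BP, which helps to release MAD2L1 from CDC20, with FPKM 31.1, 26.0 and 29.8 and a log2 difference of -0.26 ± 0.26. With sgL1ASP #3 the lowest was SPC25, a subunit of the NDC80 complex, with FPKM 16.5, 14.8 and 13.3 and a log2 difference of -0.31 ± 0.42 against mock. The highest was SKA1 at 0.089 ± 0.52. Of these 4 extremes only MAD2L1BP lay outside its counting interval, at -0.2575 against a half-width of 0.2573.

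Of 19 genes of the APC/C, which CDC20 activates, and of its regulators, 10 were higher with sgL1ASP #1 and 12 with sgL1ASP #3. Of the tested genes, 50.3% and 50.4% were higher. The medians of the 19 genes were 0.0028 and 0.051, which turned to -0.091 and -0.068 with equal sums. With sgL1ASP #1 the log2 difference was highest in the subunit ANAPC2 (0.18 ± 0.18) and lowest in the subunit ANAPC15, listed as C11orf51 (-0.35 ± 0.37). With sgL1ASP #3 it was highest in UBE2D1, a ubiquitin-conjugating enzyme (0.30 ± 0.65), and lowest in ANAPC1, the scaffold subunit (-0.29 ± 0.22). FPKM of ANAPC1 was 6.53 in mock, 5.63 with sgL1ASP #1 and 5.32 with sgL1ASP #3.

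The list of the chromosomal passenger complex, to which AURKB belongs, also holds genes that act on it. Of its 6 genes, 3 were higher with sgL1ASP #1 and 4 with sgL1ASP #3, beside 50.3% and 50.4% of the tested genes. The log2 differences ran from HASPIN, listed as GSG2, at -0.067 to USP9X at 0.057 with sgL1ASP #1, and from HASPIN at -0.11 to INCENP at 0.078 with sgL1ASP #3. Of the 16 partners of AURKA and PLK1, 6 and 5 were higher, beside the same shares of the tested genes, with medians of -0.038 and -0.072. The relatives PLK2 and PLK3 marked both ends with sgL1ASP #1, at 0.37 ± 0.47 and -0.34 ± 0.60. PLK2 had FPKM 3.04, 3.96 and 2.87 and PLK3 2.52, 1.97 and 2.40 in mock, sgL1ASP #1 and sgL1ASP #3. With sgL1ASP #3 NEDD1 was highest (0.22 ± 0.37) and HMMR lowest (-0.18 ± 0.27). None of the 4 named last lay outside its counting interval in those comparisons.

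Among the 16 genes of mitotic entry control, WEE1 stood at the top with each guide. WEE1 is the kinase that holds CDK1 inactive before mitosis. Its FPKM was 18.3 in mock, 23.0 with sgL1ASP #1 and 23.7 with sgL1ASP #3, with log2 differences of 0.33 ± 0.20 and 0.37 ± 0.20. They ranked at the 95.2 and 96.0 percentiles of all tested genes and share the mock library. LIN9, a subunit of the MuvB complex that binds CHR elements, was lowest with each guide, with FPKM 12.1, 10.3 and 10.7 and log2 differences of -0.24 ± 0.29 and -0.18 ± 0.30. The medians of the 16 genes were -0.016 and 0.0070. Of the 16, 6 and 9 lay above mock, beside 50.3% and 50.4% of the tested genes.

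The genes of chromatid separation held the only gene past 1.5-fold. SGO1, which protects centromeric cohesion and is listed as SGOL1, had FPKM 10.8 in mock, 7.18 with sgL1ASP #1 and 10.8 with sgL1ASP #3. Its log2 difference with sgL1ASP #1 was -0.58 ± 0.34 against mock and -0.59 ± 0.35 against sgL1ASP #3. It was low in sgL1ASP #1 alone, and its ratio of 0.664 to mock lay just past the limit. STAG1, a cohesin subunit, was the lowest with sgL1ASP #3, with FPKM 7.85, 6.44 and 6.33 and a log2 difference of -0.31 ± 0.25. PTTG1, the inhibitor of separase, was the highest with sgL1ASP #3 at 0.14 ± 0.17, and STAG2 the highest with sgL1ASP #1 at 0.029 ± 0.074. Of the 13 genes, 4 and 6 were higher than in mock, beside 50.3% and 50.4% of the tested genes, with medians of -0.031 and -0.017.

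**Figure D4:**
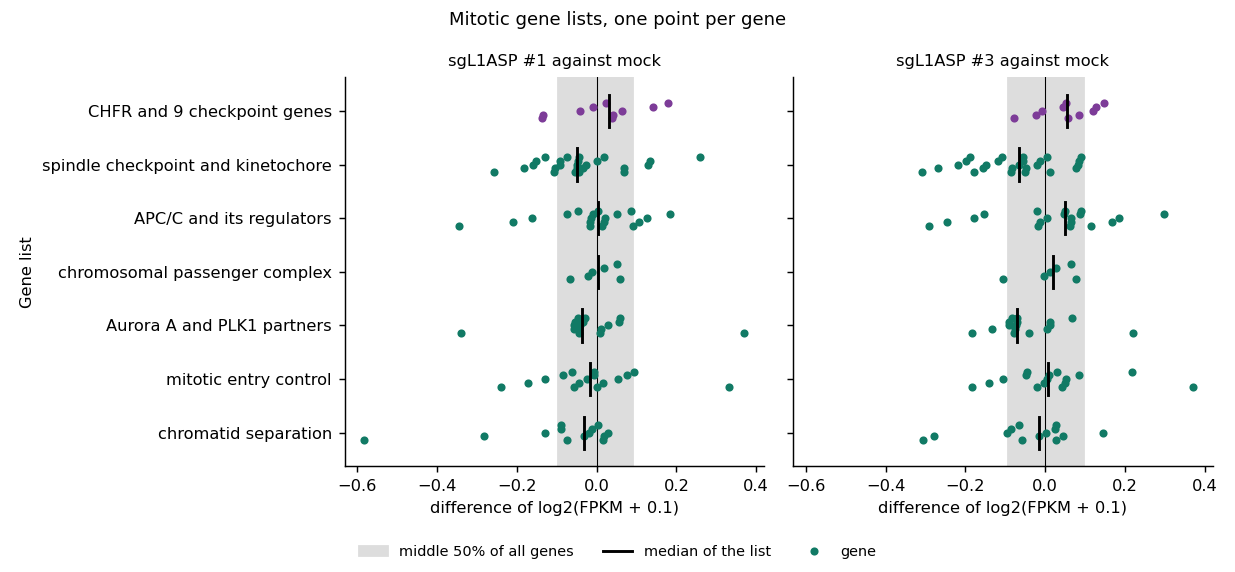
Difference of log2(FPKM + 0.1) against mock for CHFR and 9 checkpoint genes and for 6 lists of mitotic genes, 1 point per gene, with the median of each list (black line) and the interquartile range of the 12830 tested genes (grey band). The medians lie between -0.072 and 0.055, and SGO1 at -0.58 with sgL1ASP #1 is the farthest point.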

How the data were processed

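RNA-seq of 293T cells with mock, sgL1ASP #1 or sgL1ASP #3 was used, with 1 library per condition and groups taken from the labels. The authors prepared TruSeq stranded mRNA libraries, mapped single-end reads to hg19 with TopHat2 2.0.13, Bowtie2 2.2.3 and SAMtools 0.1.19, and deposited FPKM per gene from Cuffdiff (Cufflinks 2.2.1) in strand specific mode. The gene annotation and the scaling between libraries are not given in the sources used here.

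Fold changes are ratios of FPKM, and log2 differences use a pseudocount of 0.1, which slightly understates the differences of low genes. The 1.5-fold limit is that of the study, which applied it upward from mock to sgL1ASP #3 and from there to sgL1ASP #1. Here it was applied in both directions in all 3 comparisons. No test was possible with 1 library per condition. Differences were set beside all genes with mean FPKM at least 1. The alternatives were pseudocounts of 0.01 and 1, other scalings, filters and a 1.1-fold limit. The genes and lists were chosen with earlier results of these data known. Named in the lists were genes past 1.5-fold and the highest and lowest gene with each guide. Of the 3 genes nearest to CHFR, 1 is not reported here.

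Depth was estimated from the FPKM of genes with 1 transcript longer than 1000 bases, after taking 200 bases from its length, where 44 to 68 genes per library gave the peak of single reads. Reads per gene were FPKM times the coding length of the canonical transcript in GENCODE 44 on GRCh37 (the sequence of hg19), on which 92.0% of the names were placed. The reads outside the coding sequence are left out, so the 95% intervals (1.96 standard errors) are wide, to a degree that differs between genes. They cover counting error only. CHFR, PLK1 and BUB1B overlap the protein-coding genes GOLGA3 and ZNF605, ERN2, and PAK6. The fold calls, the medians and the counting interval were tested on simulated counts, with the same length and depth for every gene. The estimates of depth and of reads per gene were not tested, nor were differences as small as those reported here. Python 3.11.15, NumPy 2.4.6, pandas 2.3.3 and matplotlib 3.10.9 were used.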

Additional observations from a re-analysis of the deposited data

How the results depend on the processing

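No paired analysis was possible because there is only 1 library for every condition. All 30 log2 differences of the 10 genes moved by less than the half-width of their counting interval under each pseudocount and each scaling. A change of scale moves all genes of a library alike, and counting error is no measure of it. With equal sums and sgL1ASP #1, CHFR turned from 0.065 to -0.028. The number of genes higher than in mock with sgL1ASP #1, 6, was 2 after rescaling to a sum of 1000000 and 3 with HPRT1 made equal. With sgL1ASP #3, 7, it was 3 after rescaling to that sum and stayed 7 with HPRT1 made equal. Scaling the libraries by the median ratio of their genes to mock left the numbers at 6 and 7. The number past 1.5-fold, 0, became 3 with sgL1ASP #1 and 1 with sgL1ASP #3 at a limit of 1.1-fold. The share of all genes past 1.5-fold was 11.9%, 12.0% and 11.8% without a filter in sgL1ASP #1 against mock, sgL1ASP #3 against mock and between the guides. It was 2.11%, 2.19% and 2.19% when all 3 libraries had to reach FPKM 1, and 1.25%, 1.15% and 1.15% within the range of the 10 genes. Rescaling to that sum moved the medians of the lists with the median of all genes. With sgL1ASP #1 and sgL1ASP #3 they became -0.14 and -0.18 for the kinetochore list, -0.091 and -0.068 for the APC/C list, -0.090 and -0.099 for the passenger list, -0.13 and -0.19 for the kinase partners, -0.11 and -0.11 for mitotic entry, and -0.12 and -0.14 for chromatid separation.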

Other observations

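The genes next to CHFR on chromosome 12 of GRCh37 were looked at after its own values were seen. Within 200 kb of its canonical transcript, 9 other genes are listed in the RNA-seq. GOLGA3, a Golgi protein gene 3.2 kb away, had FPKM 17.8 in mock, 17.6 with sgL1ASP #1 and 15.7 with sgL1ASP #3. ZNF605, a zinc finger gene 30.7 kb away on the other side, had FPKM 3.09, 2.95 and 2.66. Over all annotated transcripts, GOLGA3 and ZNF605 overlap CHFR on the same strand. Both were highest in mock, while CHFR was lowest in mock by less than its counting half-width. With equal sums the log2 differences of CHFR were -0.028 with sgL1ASP #1 and -0.067 with sgL1ASP #3. The same rescaling moved the median of all tested genes to -0.092 and -0.12. Scaled by the median ratio of genes to mock, CHFR was at 0.064 and 0.050. The log2 differences of the 9 genes ran from -0.064 (ZNF605) to 0.39 (ZNF84, 149.7 kb away) with sgL1ASP #1 and from -0.26 (ZNF26, 98.8 kb away) to 0.29 (ZNF84) with sgL1ASP #3. ZNF84 had FPKM 3.62, 4.77 and 4.44, and POLE, the catalytic subunit of DNA polymerase epsilon, had 56.7, 57.1 and 59.2. With 1 library per condition these values have no replicate check.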
